A study of Mus musculus with 16 samples.

Results

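The TNF superfamily genes were read in this chromatin data set through the open regions around them. RefSeq's mouse table holds 32 protein-coding genes whose symbol starts with Tnfsf or Tnfrsf, 12 ligands and 20 receptors, of 21883 protein-coding genes. A region belonged to a gene when it overlapped the gene body or the 10 kb on either side. Of 83972 consensus regions, each with a peak in at least 2 of 16 libraries, 146 lay at a member gene, 41 at ligands and 105 at receptors. A peak was present in all 16 libraries at 56 of these 146 (38.4%), against 29.7% of all consensus regions. These 56 regions, 13 at ligands and 43 at receptors, could be compared quantitatively. Assignment rests on position alone: 89 of the 146 regions touched a member's body, and a member was the nearest protein-coding gene for 122.

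Open chromatin was mapped by ATAC-seq: Tn5, a transposase, inserts sequencing adapters where DNA is accessible. Bone marrow of male C57Bl/6 mice was depleted of cells bearing CD3, CD4, B220, Ter119 or Gr1, and the submitters call the remaining lineage-negative cells haematopoietic stem cells. The diabetic group had been given streptozotocin (STZ), a toxin of pancreatic beta cells, and the control group was not diabetic. Each of the 4 diabetic and 4 control samples was split: one portion went straight into lysis (baseline) and the second was cultured for 6 h with 10 ng/mL interleukin-1β (IL-1β), which gave 4 groups of 4 libraries. The labels do not say whether a sample was 1 mouse or a pool, so n counts samples. Stimulus and culture always came together and cannot be told apart, and the diabetic group is diabetes and STZ together.

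TNF superfamily ligands are trimeric proteins, mostly anchored in the membrane, that cluster their receptors. Receptors with a death domain can recruit FADD and caspase-8 and start apoptosis, or signal through RIPK1. Receptors without one bind TRAF adaptors, and both kinds can switch on NF-κB. Decoy receptors bind a ligand and pass on no death signal. In bone marrow the family is known for TNF's action on stem and progenitor cells, for B cell survival through BAFF and APRIL, and for control of osteoclasts by RANKL and its receptors.

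Sequences at start sites are shown for the members whose start region is taken up below. The RefSeq promoter table (GRCm38.p6) covers 250 bases before to 50 bases after each start and holds 29 windows for 25 of the 32 members. Both strands of each window were searched for NF-κB (by its name, a motif of 10 letters), AP-1 (TGANTCA), PU.1 (GAGGAA) and Runx (TGNGGT). Capitals mark NF-κB and AP-1 matches only. The windows of Tnfrsf9 and Tnfrsf8 were chosen after their values were seen. That of Tnfrsf23 followed a rule on the regions past the test.
Tnfrsf9, second start (chr4:150927749-150928048, + strand): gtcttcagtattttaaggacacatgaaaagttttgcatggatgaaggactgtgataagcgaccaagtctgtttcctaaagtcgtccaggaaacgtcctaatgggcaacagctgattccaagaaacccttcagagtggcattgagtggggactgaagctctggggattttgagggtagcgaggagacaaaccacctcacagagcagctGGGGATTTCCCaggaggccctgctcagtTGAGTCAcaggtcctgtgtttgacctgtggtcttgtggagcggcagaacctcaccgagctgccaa
Tnfrsf9, first start (chr4:150919905-150920204, + strand): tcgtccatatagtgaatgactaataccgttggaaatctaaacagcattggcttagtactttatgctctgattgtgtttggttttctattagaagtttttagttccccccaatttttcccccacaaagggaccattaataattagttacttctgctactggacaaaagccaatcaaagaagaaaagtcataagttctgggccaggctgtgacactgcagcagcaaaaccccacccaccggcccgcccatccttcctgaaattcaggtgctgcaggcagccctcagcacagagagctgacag
Tnfrsf8 (chr4:145315115-145315414, − strand): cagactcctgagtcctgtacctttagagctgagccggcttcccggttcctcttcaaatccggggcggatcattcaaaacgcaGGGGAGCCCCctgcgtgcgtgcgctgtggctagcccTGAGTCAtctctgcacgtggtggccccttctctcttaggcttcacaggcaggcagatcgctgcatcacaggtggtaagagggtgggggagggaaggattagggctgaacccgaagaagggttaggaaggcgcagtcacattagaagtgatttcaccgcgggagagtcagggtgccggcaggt
Tnfrsf23 (chr7:143685826-143686125, − strand): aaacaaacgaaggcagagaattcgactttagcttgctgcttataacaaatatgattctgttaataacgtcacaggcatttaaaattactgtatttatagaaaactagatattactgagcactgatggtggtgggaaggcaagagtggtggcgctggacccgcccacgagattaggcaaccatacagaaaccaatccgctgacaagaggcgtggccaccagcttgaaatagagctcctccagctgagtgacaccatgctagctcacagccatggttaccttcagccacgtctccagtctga

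NF-κB letters were present in 2 of the 29 member windows (6.90%), against 4.81% of 21262 windows of protein-coding genes. Both of those windows are printed. At the second start of Tnfrsf9 there are 2 overlapping matches, 43 and 42 bases before the start, and an AP-1 match lies 15 bases before it. At Tnfrsf8 the NF-κB letters begin 168 bases and the AP-1 letters 132 bases before the start. AP-1 occurred in 6 member windows (20.7%, against 6.99%), at 5 distinct sites because overlapping windows of Tnfsf13b share 1 match. PU.1 occurred in 9 (31.0%, against 27.4%) and Runx in 15 (51.7%, against 44.1%). The first start of Tnfrsf9 held neither NF-κB nor AP-1 letters, and the Tnfrsf23 window held none of the 4 motifs. A match of letters is a description of the window and not a bound site.

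Libraries held 37543 to 72525 peaks, with a background of 0.856 to 1.71 reads per window and a median of 27.0 to 58.0 reads at the highest summit of the 24955 regions shared by all. Reads at the highest summit, scaled to equal medians between libraries, are the level used here. Marker genes of progenitors (Kit, Cd34, Gata2, Mpo, Flt3, Meis1, Hlf and Myb) had a region shared by all libraries at 8 of 8 genes. So did 6 of 6 mature neutrophil and 5 of 5 monocyte markers and 3 of 5 T cell markers, so marker regions did not separate the cell types. The NK marker Ncr1 and the stroma marker Cxcl12 had no consensus region. One library, diabetic baseline replicate 4, stood at the end of its group at several member regions, and results that rest on it are given with and without it. In such bulk samples, fewer cells of a type and less open DNA per cell cannot be told apart.

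Most member regions that rose or fell after IL-1β lay at receptors, which also held most of the family's shared regions. In limma, with Benjamini-Hochberg adjustment over all 24955 shared regions, 9 of the 56 member regions were higher after IL-1β (16.1%, against 6.42% of all shared regions) and 3 were lower (5.36%, against 3.40%). The receptors held 8 of the 9 that rose and all 3 that fell, of 43. The ligands held 1 that rose and 0 that fell, of 13. Without diabetic baseline replicate 4, 12 member regions were higher (21.4%, against 11.1% of all) and 4 lower (7.14%, against 5.90%). That library's removal raised the counts over all shared regions from 1603 to 2775 higher and from 848 to 1473 lower. The median log2 change was 0.07 over the members, 0.13 over ligand regions and 0.07 over receptor regions, beside 0.03 over all shared regions. At 4 member regions the lowest IL-1β library lay above the highest baseline library, against 1.58% of all shared regions, and at 0 the highest IL-1β library lay below every baseline library, against 0.645%. When libraries were scaled by their background reads in place of equal medians, the median of all regions moved from 0.03 to −0.24, the members' median from 0.07 to −0.20, and the counts became 1 higher (1.79%, against 0.813% of all) and 4 lower (7.14%, against 9.39%). The members' lower share was then below that of all regions, the reverse of the scaling to equal medians. The decoy region of Tnfrsf22, both regions of Tnfrsf10b and the one of Tnfrsf1a described below passed under both scalings, and the fourth lower region was then the start region of Tnfrsf1a.

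**Figure D1:**
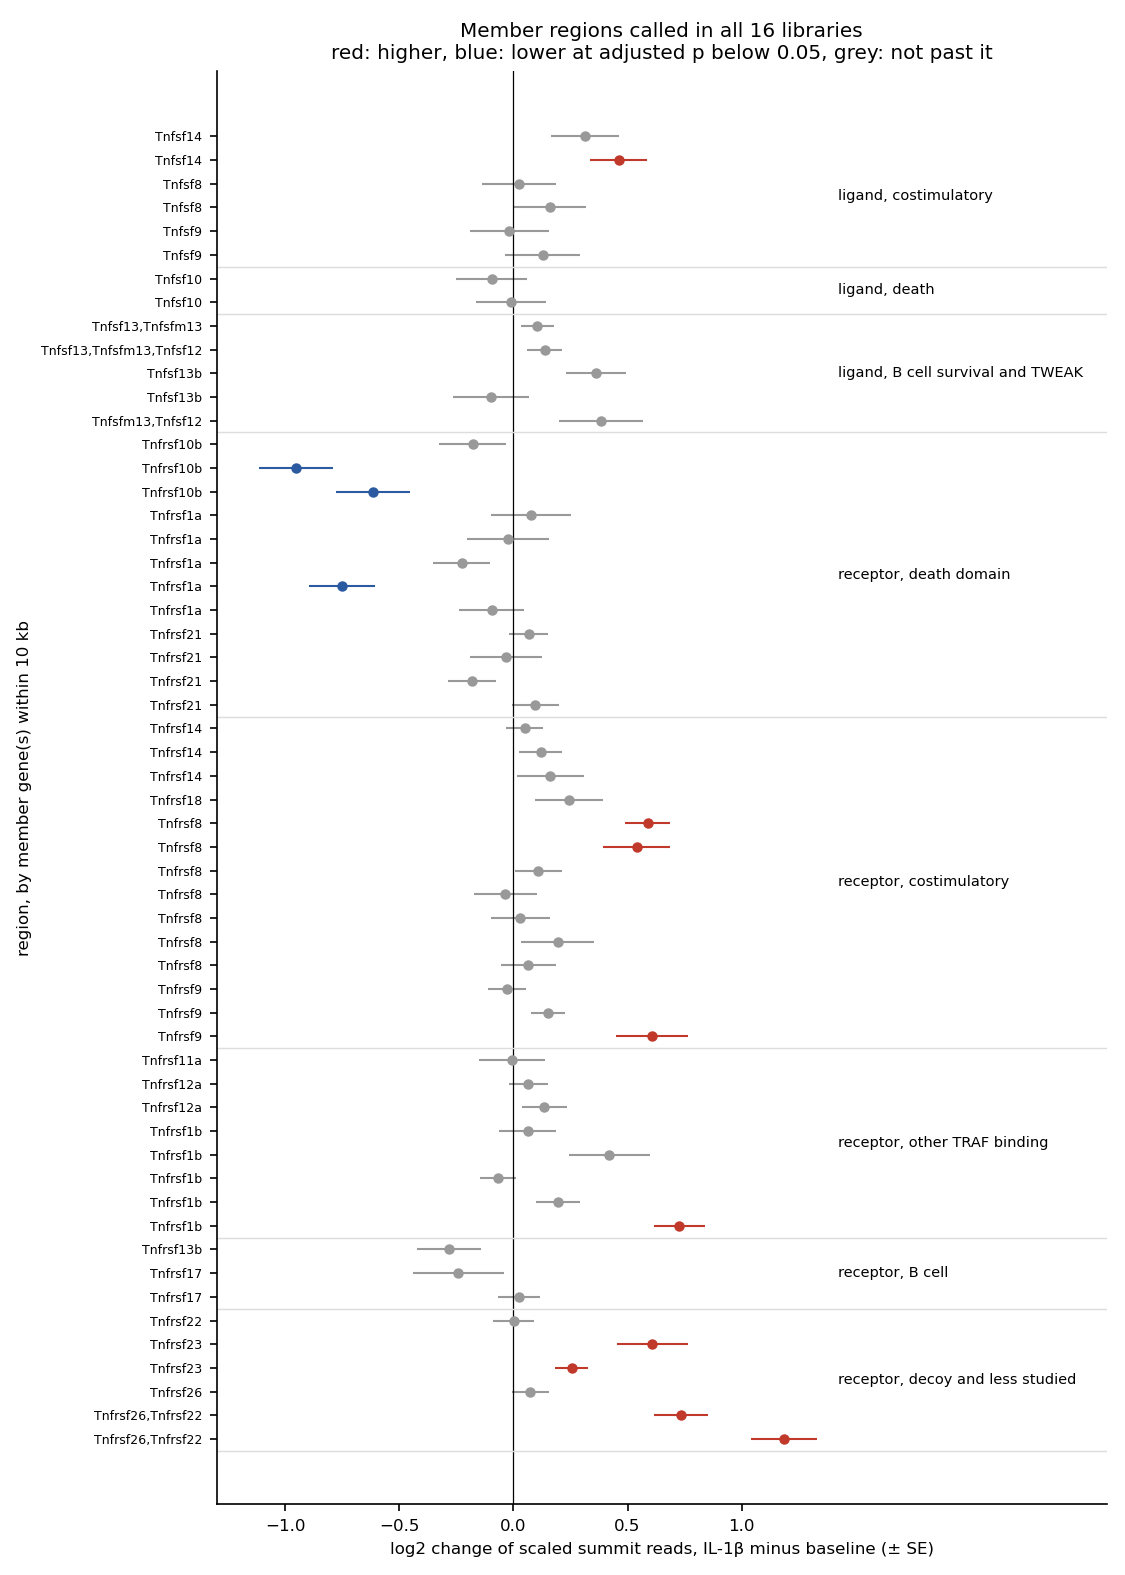
Log2 change of scaled summit reads from baseline to IL-1β (x axis, mean of both phenotypes ± SE) for the 56 member regions with a peak in all 16 libraries, one row each, grouped by the member's role. Red points (9) were higher and blue points (3) lower at an adjusted p below 0.05 in limma; the 3 blue ones are death-domain receptors, and 4 of the 9 red ones lie at the decoy receptor cluster.

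The largest change in the family lay at the decoy receptors. Tnfrsf22 and Tnfrsf23 encode receptors that bind TRAIL without a death domain, and Tnfrsf26 beside them encodes a receptor with no settled ligand. The 3 genes lie in a row on chromosome 7, with 6963 bp between Tnfrsf26 and Tnfrsf22 and 16132 bp between Tnfrsf22 and Tnfrsf23. Of their 6 shared regions, 4 rose (66.7%, against 6.42% of all shared regions) and 0 fell (against 3.40%), with a median log2 change of 0.43.

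Within Tnfrsf22, and within 10 kb of Tnfrsf26, the region chr7:143636622-143637180 gave 11.0, 16.7, 15.6 and 17.7 scaled reads in control baseline libraries 1 to 4. The same control samples gave 25.4, 35.2, 29.7 and 34.1 after IL-1β. Diabetic samples gave 17.1, 13.1, 15.2 and 10.2 at baseline and 38.2, 32.7, 38.0 and 29.1 after IL-1β. Every stimulated library was above every baseline library. The 8 baseline libraries averaged 14.6 ± 2.84 and the 8 stimulated ones 32.8 ± 4.51 (SD). The log2 change was 1.19 (SE 0.15, limma adjusted p 9.576e-06), higher in 8 of 8 samples.

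At the edge of Tnfrsf26 nearer Tnfrsf22, chr7:143627734-143628406 gave 28.3, 24.2, 32.5 and 24.5 in control baseline libraries and 34.3, 50.1, 44.0 and 34.1 in control IL-1β libraries. Diabetic samples gave 26.2, 23.4, 23.2 and 23.3 at baseline and 48.8, 42.1, 52.7 and 38.0 after IL-1β. The baseline and stimulated libraries again did not overlap. The log2 change was 0.73 (SE 0.12, limma adjusted p 0.000194, 8 of 8 samples). Here the local background that the peak caller took around the summit rose with the reads, from 3.72 ± 0.89 to 6.10 ± 0.94 reads (SD, n = 8), and the deposited fold over that background went from 6.31 ± 0.91 to 5.67 ± 0.71 (SD, n = 8). On that fold the log2 change was −0.01.

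Between Tnfrsf26 and Tnfrsf22, chr7:143629549-143629895 had a peak in 1 of 8 baseline and 7 of 8 IL-1β libraries. Its summit held 19 reads in the baseline library and 20 to 36 in the stimulated ones, before scaling. Fisher's exact test, two-sided, gave p = 0.0101, and 0.694 after adjustment over all consensus regions.

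Tnfrsf23 had both of its shared regions raised. In its body, 19.0 kb after the start, chr7:143666447-143667397 gave 24.3, 29.2, 29.8 and 26.5 in control baseline libraries and 35.2, 31.1, 39.3 and 41.3 after IL-1β. The diabetic samples gave 21.1, 26.2, 28.0 and 11.6 at baseline and 35.0, 33.6, 46.6 and 30.4 after IL-1β. The groups did not overlap, and the log2 change was 0.61 (SE 0.16, limma adjusted p 0.0126). The region did not pass with background scaling or on the deposited fold.

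Over the start of Tnfrsf23, whose window is printed above, chr7:143685447-143686493 gave 60.8 to 71.7 in control baseline libraries (68.3, 68.5, 71.7 and 60.8) and 74.4, 79.9, 78.5 and 74.4 after IL-1β. Diabetic samples gave 78.5, 61.7, 63.3 and 61.1 at baseline and 81.7, 75.7, 92.0 and 79.8 after IL-1β. The diabetic baseline replicate 1 overlapped the stimulated libraries. This was the smallest change past the test, 0.26 on the log2 scale (SE 0.07, limma adjusted p 0.0240, 8 of 8 samples); it was −0.01 with background scaling and 0.21 (adjusted p 0.0562) with cyclic loess. Its adjusted p was 0.0546 without control baseline replicate 4, 0.0638 without diabetic IL-1β replicate 3 and 0.0516 without diabetic baseline replicate 2. The region also did not pass on the deposited fold or when regions in at least 12 libraries were fitted.

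The other 2 shared regions of this cluster, near Cars beyond Tnfrsf26 and at one end of Tnfrsf22, had log2 changes of 0.07 (SE 0.08) and 0.00 (SE 0.09), which did not pass the test. The first of these is the highest receptor-assigned region, chr7:143599593-143600472, and lies within the body of Cars. It gave 85.6, 88.5, 93.4 and 98.1 in control baseline and 90.8, 104.2, 94.0 and 110.5 in control IL-1β libraries. Diabetic samples gave 97.6, 92.5, 90.5 and 135.2 at baseline and 106.1, 95.3, 98.1 and 119.0 after IL-1β. The baseline range spans the stimulated range.

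**Figure D2:**
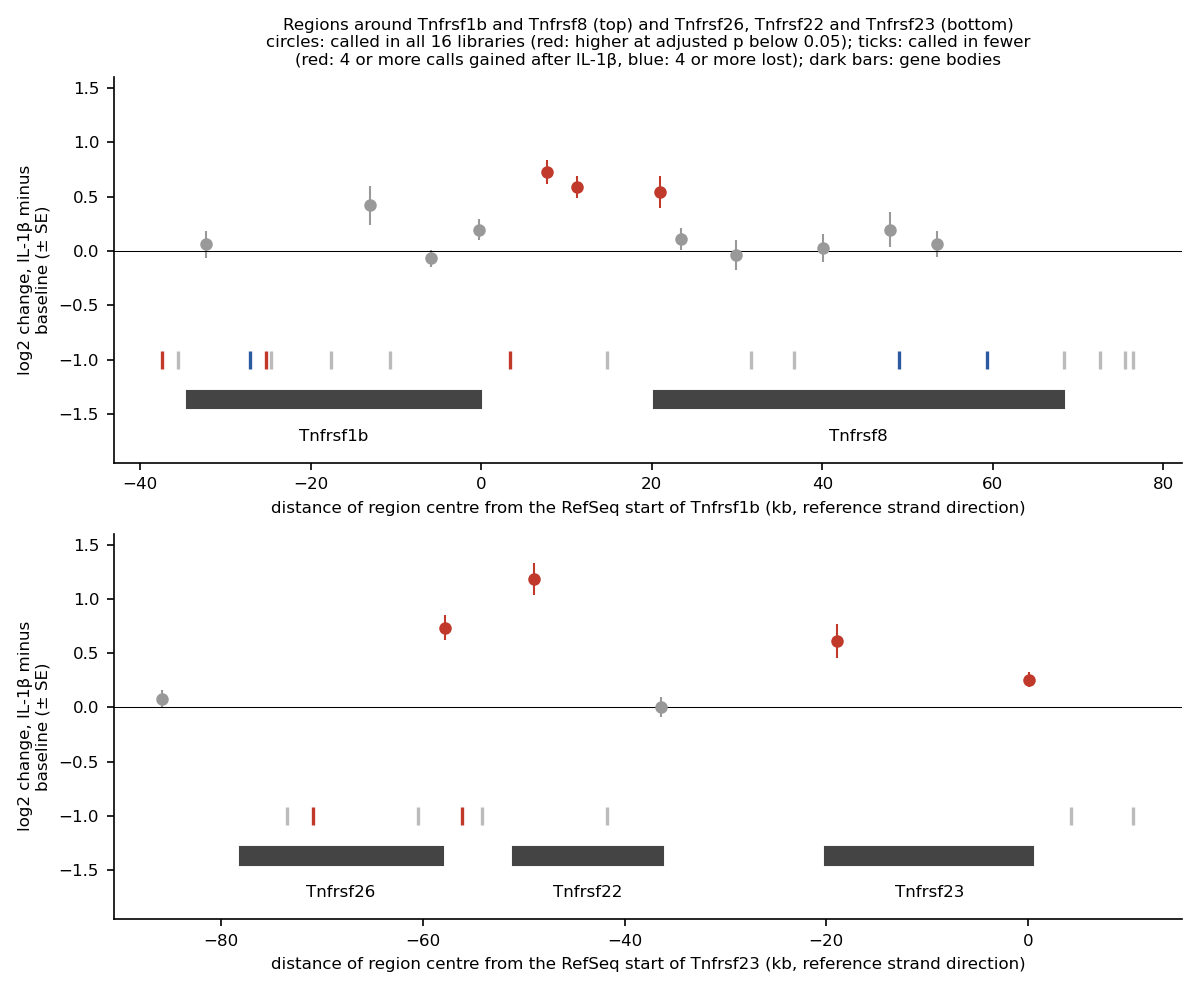
Log2 change with IL-1β (y axis, ± SE) of regions around Tnfrsf1b and Tnfrsf8 (top) and around Tnfrsf26, Tnfrsf22 and Tnfrsf23 (bottom), by distance in kb from a RefSeq start (x axis). Red circles rose in limma, grey circles did not pass the test, and ticks are regions without a peak in every library. In the top panel 2 of the 3 red circles lie between both genes and the third just inside the far end of Tnfrsf8, and in the bottom panel 4 of 6 circles are red.

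At the death-domain receptors among the members the regions past the test fell, all of them at Tnfrsf10b or Tnfrsf1a. Of the 12 shared regions at Tnfrsf1a, Tnfrsf10b, Tnfrsf21 and Tnfrsf25, 3 were lower (25.0%, against 3.40% of all shared regions). None was higher (0, against 6.42%), and the median log2 change of the 12 was −0.14. The direction holds for these symbols only: Fas, a death receptor under another symbol, had a region that rose (log2 change 0.61, given below). Tnfrsf10b encodes the death receptor for TRAIL in the mouse, the counterpart of the decoys above. In its body, chr14:69774765-69775307 gave 31.4, 36.7, 40.6 and 31.4 in control baseline libraries and 13.1, 16.2, 27.4 and 15.5 after IL-1β. Diabetic samples gave 44.3, 38.3, 43.3 and 24.7 at baseline and 19.1, 23.4, 22.1 and 15.2 after IL-1β. Baseline and stimulated libraries overlapped only where control IL-1β replicate 3 lay above diabetic baseline replicate 4. The region fell by 0.95 on the log2 scale (SE 0.16, limma adjusted p 0.000348) and was lower in 8 of 8 samples.

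A second region of Tnfrsf10b, chr14:69780355-69780822, gave 26.7, 21.7, 23.7 and 27.5 in control baseline and 10.6, 21.7, 19.0 and 16.5 in control IL-1β libraries. Diabetic samples gave 22.1, 22.4, 15.2 and 18.9 at baseline and 18.0, 12.2, 11.0 and 10.1 after IL-1β. It fell by 0.62 on the log2 scale (SE 0.16, limma adjusted p 0.0164), with overlapping groups, and did not pass on the deposited fold (limma adjusted p 0.0574). The third shared region of this gene, beside the first, had a log2 change of −0.18 (SE 0.15) and did not pass.

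Tnfrsf1a encodes the main TNF receptor of most cells. A region 1797 bp after its start, chr6:125351282-125351759, gave 59.7, 62.6, 60.9 and 59.9 in control baseline libraries and 27.8, 27.1, 46.4 and 33.1 after IL-1β. Diabetic samples gave 65.4, 44.9, 41.7 and 39.3 at baseline and 48.8, 25.2, 24.5 and 29.1 after IL-1β. The control libraries separated fully, and the diabetic replicate 1 was high in both portions. The region fell by 0.75 (log2; SE 0.14, limma adjusted p 0.00106). On the deposited fold the change was −0.25 (adjusted p 0.198), beside a local background that went from 12.5 ± 4.21 to 7.55 ± 1.68 reads with IL-1β (SD, n = 8).

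The start region of Tnfrsf1a itself had a log2 change of −0.23 (SE 0.12), which passed only with background scaling (−0.50, adjusted p 0.0189) or with the sample as a block (adjusted p 0.0472). Further upstream, within the neighbouring gene Scnn1a, chr6:125342287-125342587 had a peak in 7 of 8 baseline libraries and 1 of 8 IL-1β libraries, with 19 to 35 unscaled reads in the former and 29 in the latter (Fisher's exact test, unadjusted p = 0.0101, adjusted p = 0.694). Tnfrsf21, encoding death receptor 6, kept 4 shared regions with log2 changes from −0.18 to 0.10, none past the test. Tnfrsf25, encoding death receptor 3, had 5 consensus regions, 0 of them in all libraries.

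Among costimulatory receptors, which sustain lymphocyte responses and bind TRAFs, 3 of 14 shared regions rose (21.4%) and 0 fell. The other TRAF-binding receptors had 1 of 8 higher (12.5%) and 0 lower. Beside these, 6.42% of all shared regions rose and 3.40% fell. Tnfrsf9 held 1 of the regions that rose. Of the others, 2 lay in the 20262 bp between Tnfrsf1b and Tnfrsf8, neighbours on chromosome 4, and 1 inside the far end of Tnfrsf8.

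Tnfrsf9 encodes 4-1BB (CD137). Its second RefSeq start, shown above with the NF-κB and AP-1 letters, overlapped a region with a peak in 0 of 8 baseline libraries and 7 of 8 IL-1β libraries (chr4:150927801-150928118). The unscaled summit held 21, 11 and 14 reads in control IL-1β replicates 1, 3 and 4, and 18, 20, 16 and 14 in the 4 diabetic IL-1β libraries. Fisher's exact test gave p = 0.0014 (two-sided) and 0.336 after adjustment. The library without a peak, control IL-1β replicate 2, had the shortest peak list. The baseline libraries did not reach the authors' threshold there, and their level is unknown. No consensus region overlapped the window of the first start of Tnfrsf9.

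Between both starts, 3514 bp before the second, chr4:150924211-150924760 gave 12.6, 9.19, 14.2 and 18.6 in control baseline libraries and 17.2, 24.4, 22.6 and 24.8 after IL-1β. Diabetic samples gave 25.2, 14.95, 16.02 and 17.4 at baseline and 26.5, 24.3, 22.1 and 27.9 after IL-1β. The log2 change was 0.61 (SE 0.16, limma adjusted p 0.0143), higher in 8 of 8 samples, with overlapping groups. This region did not pass with background scaling or on the deposited fold. The 2 remaining shared regions in the gene's window lie at or near Park7 and had log2 changes of −0.03 (SE 0.08) and 0.15 (SE 0.07). The latter, chr4:150914002-150914796, is the second highest receptor-assigned region, with 86.4, 84.4, 75.8 and 97.2 in control baseline and 94.0, 113.7, 97.5 and 99.2 in control IL-1β libraries. Diabetic samples gave 94.6, 93.5, 93.7 and 119.2 at baseline and 114.6, 98.1, 100.6 and 105.1 after IL-1β. Without diabetic baseline replicate 4 its log2 change was 0.19 and passed (limma adjusted p 0.0364).

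Tnfrsf1b encodes the second TNF receptor, prominent on leukocytes. A region 7758 bp upstream of its start, chr4:145254420-145254836, gave 31.4, 20.9, 31.1 and 33.4 in control baseline libraries and 53.2, 50.1, 50.0 and 57.8 after IL-1β. Diabetic samples gave 33.2, 35.5, 26.4 and 39.3 at baseline and 57.3, 49.5, 51.5 and 41.8 after IL-1β. Baseline and stimulated libraries did not overlap, and the log2 change was 0.73 (SE 0.11, limma adjusted p 0.000147). Its local background went from 4.40 ± 0.95 to 6.07 ± 1.20 reads with IL-1β and its deposited fold from 6.63 ± 0.94 to 6.88 ± 0.94 (SD, n = 8). It did not pass with background scaling or on that fold.

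Tnfrsf8 encodes CD30. Next to it, 8662 bp beyond the far end of Tnfrsf8, chr4:145257738-145258470 gave 44.0, 40.1, 35.2 and 38.3 in control baseline and 50.7, 67.7, 57.1 and 62.0 in control IL-1β libraries. Diabetic samples gave 47.3, 37.4, 37.7 and 33.4 at baseline and 65.8, 45.8, 65.0 and 58.2 after IL-1β. The log2 change was 0.59 (SE 0.10, limma adjusted p 0.000321); the diabetic IL-1β replicate 2 fell within the baseline range.

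Inside the far end of Tnfrsf8, chr4:145267533-145268195 gave 33.8, 20.05, 29.1 and 21.6 in control baseline and 49.1, 23.01, 33.3 and 35.1 in control IL-1β libraries. Diabetic samples gave 26.2, 29.9, 29.6 and 24.7 at baseline and 37.1, 39.3, 51.5 and 49.4 after IL-1β. The log2 change was 0.54 (SE 0.15, limma adjusted p 0.0185), with separated groups in diabetic samples and overlapping ones in control samples. This region did not pass with background scaling, on the deposited fold or when regions in at least 12 libraries were fitted. The start of Tnfrsf8, 47.3 kb away and the other window with NF-κB letters, had a peak in 3 of 8 baseline and 5 of 8 IL-1β libraries. The other 5 shared regions of Tnfrsf8 had log2 changes between −0.03 and 0.19. Those of Tnfrsf1b ranged from −0.07 over the gene body to 0.42 (SE 0.18), the last at chr4:145233399-145234352. It did not pass (limma adjusted p 0.147), but did with the sample as a block (limma adjusted p 0.0236).

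At the far end of Tnfrsf1b, 2713 bp beyond its body, chr4:145209286-145209655 had a peak in 1 of 8 baseline libraries, with 11 unscaled reads, and in 8 of 8 IL-1β libraries, with 14 to 21. Fisher's exact test gave p = 0.0014, adjusted p = 0.336. Tnfrsf12a, encoding the TWEAK receptor Fn14, had a region 623 bp after its start with a peak in 0 of 8 baseline and 6 of 8 IL-1β libraries (chr17:23676637-23677015, 25 to 30 unscaled reads, unadjusted p = 0.00699, adjusted p = 0.664). Its start region, 41.1 at baseline and 45.0 after IL-1β, had a log2 change of 0.13 (SE 0.10). Beyond Tnfrsf14, which encodes the LIGHT receptor HVEM, chr4:154916761-154917049 had a peak in 3 of 8 baseline libraries and 8 of 8 IL-1β libraries, with 11 to 18 and 12 to 19 unscaled reads (unadjusted p = 0.0256, adjusted p = 0.908). At all 6 regions named for their calls the summits held 11 to 36 unscaled reads, and a library without a peak there has no value.

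**Figure D3:**
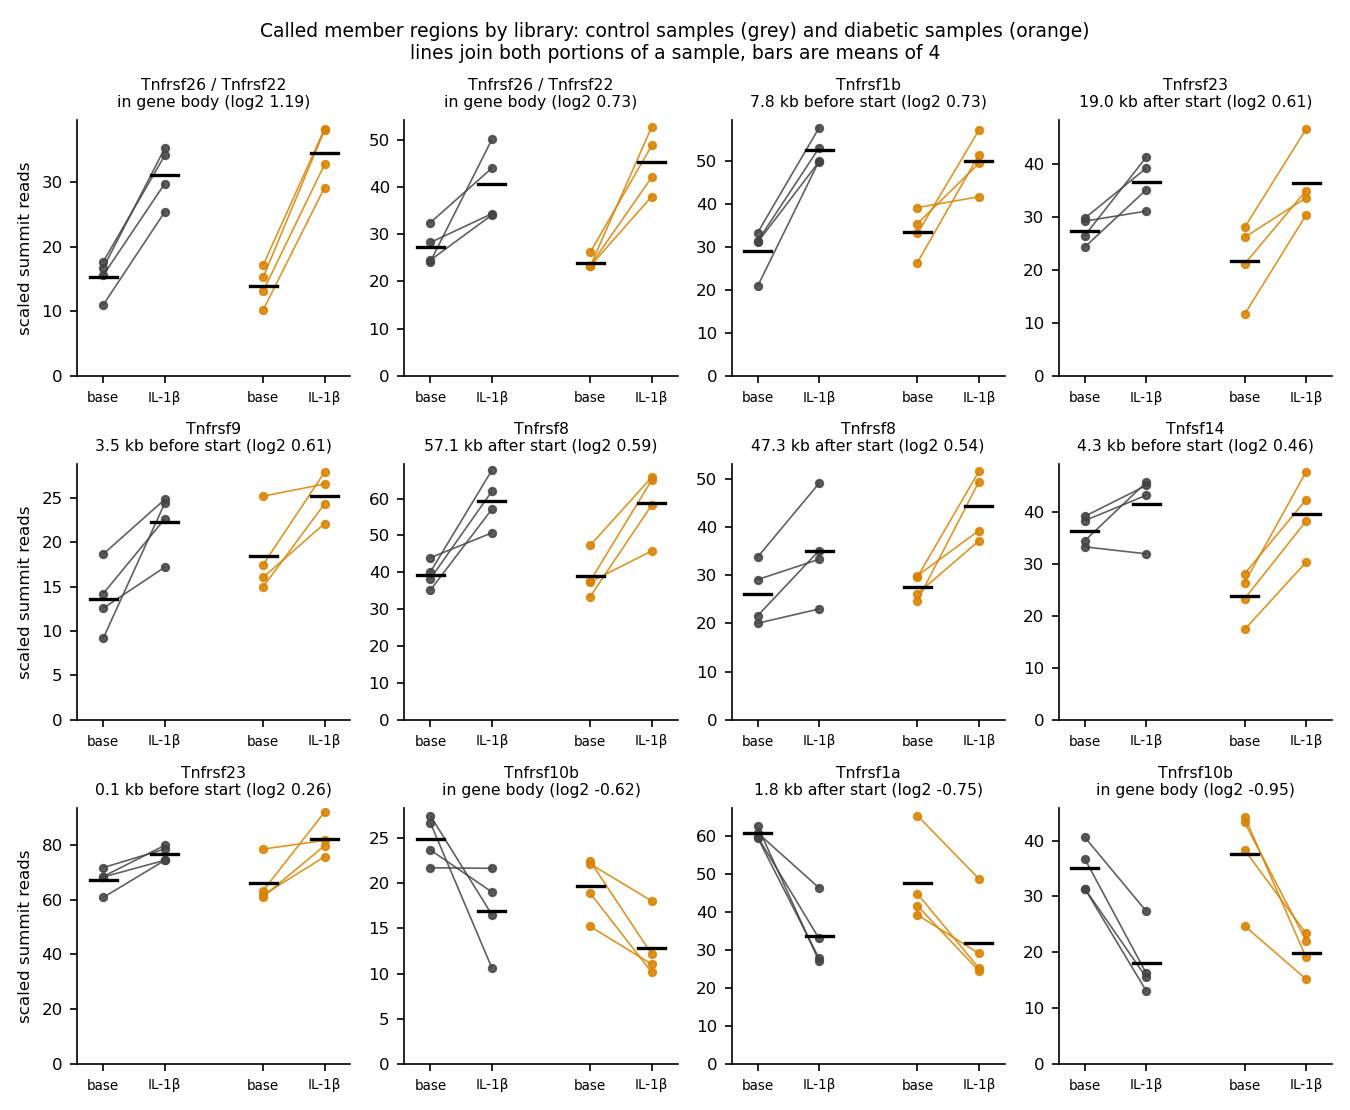
Scaled summit reads (y axis, from 0) in every library for the 12 member regions past the limma test, ordered from the largest rise to the largest fall. Each line joins the baseline and IL-1β portion of one sample, control in grey and diabetic in orange, and bars are means of 4; at Tnfrsf22 all 8 lines rise, from between 10.2 and 17.7 to between 25.4 and 38.2.

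Among the ligands, Tnfsf14, encoding LIGHT, a ligand of HVEM and of the lymphotoxin β receptor, held the only one of 13 shared ligand regions past the test. It lies 4269 bp upstream of the start (chr17:57198233-57198668) and gave 34.5, 38.4, 39.3 and 33.4 in control baseline and 45.8, 43.3, 45.2 and 32.0 in control IL-1β libraries. Diabetic samples gave 28.2, 23.4, 26.4 and 17.4 at baseline and 42.4, 38.3, 47.8 and 30.4 after IL-1β. The diabetic baseline libraries were the lowest of the 4 groups. The log2 change over both phenotypes was 0.46 (SE 0.13, limma adjusted p 0.0194, higher in 7 of 8 samples), and its adjusted p was 0.0548 without diabetic IL-1β replicate 3. The region also did not pass with background scaling, on the deposited fold or when regions in at least 12 libraries were fitted. The start region of Tnfsf14 had a log2 change of 0.31 (SE 0.15) and did not pass.

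Of the B cell survival ligands, Tnfsf13b encodes BAFF and Tnfsf13 encodes APRIL, while Tnfsf12 encodes TWEAK and Tnfsfm13 is a readthrough of Tnfsf12 and Tnfsf13. None of their 5 shared regions passed. The start region of Tnfsf13b came nearest, at 0.36 on the log2 scale (SE 0.13, limma adjusted p 0.0814; 0.0313 with the sample as a block). The start region of Tnfsf12 and Tnfsfm13 had 0.38 (SE 0.18, adjusted p 0.214). The 2 highest regions assigned to ligands lie in neighbouring genes of this compact locus.

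The higher of them, within Eif4a1 (chr11:69671150-69672751), gave 109.1, 126.1, 102.9 and 133.5 in control baseline libraries and 112.9, 142.1, 138.0 and 134.3 after IL-1β. Diabetic samples gave 133.9, 120.6, 117.0 and 129.4 at baseline and 128.4, 125.2, 123.9 and 139.3 after IL-1β. The groups overlapped, with a log2 change of 0.10 (SE 0.07). The other, within Senp3 (chr11:69681554-69682253), gave 82.4, 77.7, 71.7 and 88.3 in control baseline and 73.6, 86.6, 83.3 and 105.4 in control IL-1β libraries. Diabetic samples gave 79.5, 81.3, 83.3 and 72.7 at baseline and 81.7, 82.2, 96.9 and 93.7 after IL-1β. Its log2 change was 0.14 (SE 0.08), and neither passed the test.

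Tnfsf10 encodes TRAIL, the ligand of Tnfrsf10b and of the decoys. Its start region gave a mean of 16.7 at baseline and 15.1 after IL-1β, and the log2 changes of its 2 shared regions were −0.10 (SE 0.16) and −0.01 (SE 0.15). Neither passed the test; in the TRAIL system the regions that passed lay at its receptors. For the ligands of CD30 and 4-1BB, Tnfsf8 had 2 shared regions (log2 changes of 0.02 and 0.16) and Tnfsf9 had 2 (−0.02 and 0.13), none past the test. Tnfsf4 (OX40 ligand), Tnfsf15 (TL1A), Tnfsf18 (GITR ligand) and Tnfsf11 (RANKL) had 1, 3, 3 and 2 consensus regions, none of them in all libraries.

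Every member is thereby accounted for as follows, by consensus regions and, of those, regions in all 16 libraries. Among ligands, Tnfsf13 had 6 and 2, Tnfsfm13 7 and 3, Tnfsf12 6 and 2, Tnfsf9 4 and 2, Tnfsf14 5 and 2, Tnfsf10 5 and 2, Tnfsf8 7 and 2, and Tnfsf13b 4 and 2. Among the receptors treated above, Tnfrsf8 had 16 and 7, Tnfrsf1b 13 and 5, Tnfrsf21 10 and 4, Tnfrsf1a 8 and 5, Tnfrsf26 8 and 3, Tnfrsf22 7 and 3, Tnfrsf14 7 and 3, Tnfrsf10b 5 and 3, Tnfrsf9 4 and 3, Tnfrsf23 4 and 2, and Tnfrsf12a 4 and 2. Tnfrsf8 and Tnfrsf1b held the most regions of the family.

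The B cell receptors Tnfrsf13b (TACI), Tnfrsf13c (BAFF receptor) and Tnfrsf17 (BCMA) had 5 and 1, 3 and 0, and 2 and 2. Their 3 shared regions had log2 changes of −0.28 (SE 0.14), −0.24 (SE 0.20) and 0.02 (SE 0.09), and none passed. Tnfrsf11a (RANK) had 4 and 1 and a log2 change of −0.01 (SE 0.15) at its start. Tnfrsf18 (GITR) had 4 and 1, and its shared region, nearest to Ttll10, had 0.24 (SE 0.15). Tnfrsf4 (OX40) had 2 and 0, Tnfrsf19 (TROY) 1 and 0, and Tnfrsf11b (osteoprotegerin), made mainly by stromal cells, had no consensus region. Where windows overlap, 14 regions counted for several members.

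Regions past the test overlapped a start window less often than shared regions did, in the family and over all regions. A RefSeq start window was overlapped by 17 of the 56 shared member regions (30.4%, against 34.5% of all shared regions), but by 1 of the 12 past the test (8.33%, against 15.9% of all regions past it). That one is the start of Tnfrsf23, and no difference between the family and all regions past the test is drawn from 12 regions. Several changed genes have no window in the promoter table (Tnfrsf22, Tnfrsf26 and Tnfrsf10b), so these shares are lower limits for members. The region at the edge of Tnfrsf26 may lie at a start or at an end, since the strand of that gene was not used here.

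Peak calls gave a wider but coarser view. By Fisher's exact test over all 83972 consensus regions, 0 member regions passed the adjusted threshold (0% of all regions), with a lowest adjusted p of 0.336 among members. At an unadjusted p under 0.05, 5 member regions gained peaks after IL-1β (3.42%, against 1.10% of all) and 7 lost them (4.79%, against 3.03%). All 5 that gained lay at receptors, and 6 of the 7 that lost them did. With peak lists cut to equal length, 4 of 106 member regions gained peaks (3.77%, against 2.35% of all) and 0 lost them (against 1.58%). The libraries of the IL-1β groups also had fewer peaks in all, with 59.1% ± 10.7 of all consensus regions called against 68.4% ± 9.75 at baseline (SD, n = 8).

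Ligand regions had a peak in 68.6% ± 14.6 of cases at baseline and 58.5% ± 12.5 after IL-1β, close to the fall over all regions. Receptor regions had one in 70.5% ± 6.83 and 70.8% ± 7.13 (SD, n = 8 throughout). By group, the receptor share was 73.3% ± 5.55 in control baseline, 70.0% ± 9.48 in control IL-1β, 67.6% ± 7.499 in diabetic baseline and 71.7% ± 5.18 in diabetic IL-1β libraries (SD, n = 4). The ligand share was 73.8% ± 13.6, 54.3% ± 15.1, 63.4% ± 15.6 and 62.8% ± 9.42 in the same order. All groups overlap, and the difference was given no test because it is a value over chosen members.

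**Figure D4:**
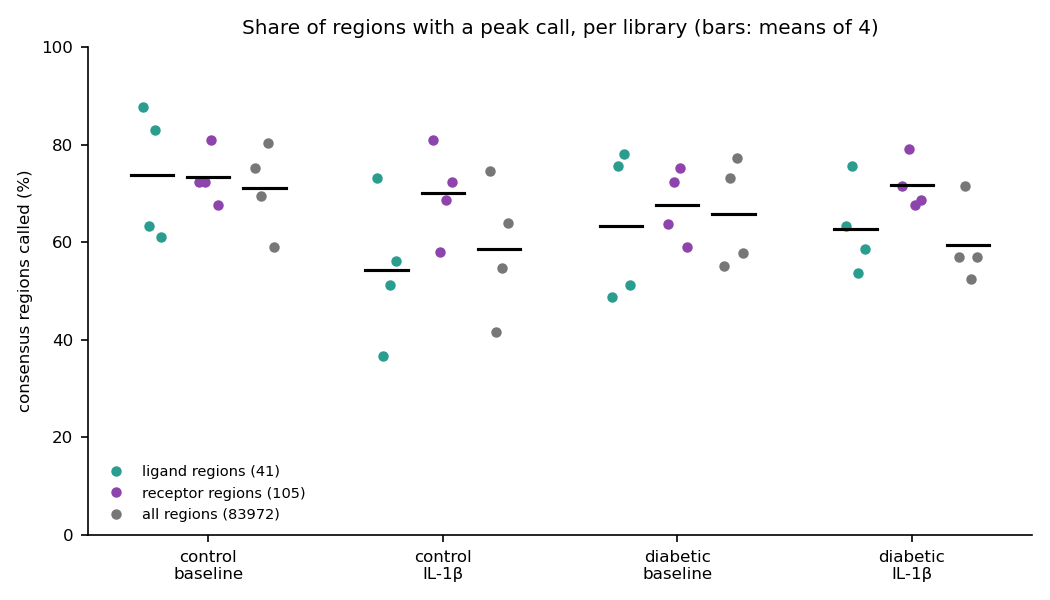
Share of consensus regions with a peak (y axis, percent) in each library, by group, for 41 ligand regions, 105 receptor regions and all 83972 regions; points are libraries and bars are means of 4. Receptor shares stay between 58.1% and 81.0%, ligand shares spread from 36.6% to 87.8%, and all groups overlap.

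The deposited fold, which sets the reads at a summit over the local background, was also compared between the classes. Its median over the ligand regions with a peak was 6.34 ± 0.45 in baseline and 6.52 ± 0.63 in stimulated libraries. Over receptor regions it was 6.11 ± 0.25 and 5.58 ± 0.32 (SD, n = 8). Over all consensus regions it was 6.29 ± 0.25 and 6.04 ± 0.19. The ligand median stood above the receptor median in 5 of 8 baseline and 8 of 8 IL-1β libraries. Each of these medians runs over the regions with a peak in that library, a set that differs between libraries. Over the shared regions alone, the ligand median was 8.89 ± 1.33 in baseline and 8.02 ± 1.34 in stimulated libraries. The receptor median there was 8.16 ± 0.69 and 7.07 ± 0.58 (SD, n = 8). On that fixed set the ligand median was below the receptor median in 5 of 16 libraries, against 3 of 16 over regions with a peak. On the deposited fold 1 member region was higher (1.79%, against 3.92% of all) and 1 lower (1.79%, against 2.21%) in limma. They lie within Tnfrsf22 (0.61, SE 0.12, limma adjusted p 0.0031) and Tnfrsf10b (−0.58, SE 0.12, limma adjusted p 0.00696). Both shares were then below those of all regions, the reverse of the reads scaled to equal medians. The cause was not tested.

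By phenotype, control and diabetic samples gave the same direction at all 12 regions past the pooled test, which that choice favours. In control samples 3 member regions were higher (1.78% of all regions were) and 2 lower (0.970%): the ones at Tnfrsf22, upstream of Tnfrsf1b and beyond Tnfrsf8 rose, and the first of Tnfrsf10b and that of Tnfrsf1a fell. In diabetic samples 6 were higher (2.19%) and 1 lower (0.641%): those same 3, that edge of Tnfrsf26, the body of Tnfrsf23 and the region upstream of Tnfsf14 rose, and the first of Tnfrsf10b fell. With the sample as a block, which uses the split of each sample, the control count rose to 5 higher, adding Tnfrsf9 (adjusted p 0.0360) and that edge of Tnfrsf26 (0.0383), against 3.63% of all regions. The diabetic samples had 2 lower (1.35% of all), adding Tnfrsf1a (0.0103). Diabetic samples then also had 8 higher (4.16% of all), adding the start of Tnfsf14 (adjusted p 0.0387) and the far end of Tnfrsf8 (0.0123). Without diabetic baseline replicate 4 the control count was likewise 5 higher (4.14% of all), and the diabetic count 5 higher (2.41%) and 2 lower (1.23%).

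These lists are not evidence of a difference between phenotypes. The difference of the IL-1β change itself passed at 0 of 56 member regions and at 0% of all regions in limma. At an unadjusted p under 0.05 it was 1 member region, against 1.67% of all. That region is the one upstream of Tnfsf14, where the change was 0.18 (SE 0.18) in control and 0.74 (SE 0.18) in diabetic samples, a difference of 0.56 (SE 0.25, unadjusted p 0.0358, limma adjusted p 0.99977). Without diabetic baseline replicate 4 that difference was 0.42 (SE 0.22, unadjusted p 0.0735). The 1 member region then at an unadjusted p under 0.05, against 2.05% of all, lay at Tnfrsf8 (0.56, SE 0.27, unadjusted p 0.0490). At Tnfrsf22 the changes were 1.04 (SE 0.21) and 1.33 (SE 0.21), and at the first region of Tnfrsf10b they were −1.01 (SE 0.23) and −0.90 (SE 0.23).

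Diabetic and control samples did not differ past the adjusted threshold at any member region, at baseline (0 of 56, 0% of all regions in limma) or after IL-1β (0 of 56, 0% of all). At baseline 5 member regions had an unadjusted p under 0.05, against 11.8% of all regions. The lowest p was at the region upstream of Tnfsf14, with 36.4 ± 2.88 scaled reads in control and 23.9 ± 4.72 in diabetic baseline libraries (SD, n = 4), which did not overlap. The log2 difference was −0.63 (SE 0.18, unadjusted p 0.00167, limma adjusted p 0.423). The start region of Tnfsf14 had −0.52 (SE 0.21, unadjusted p 0.0193), and there diabetic baseline replicate 4 gave 18.9 against 41.1 to 56.4 in the other 3.

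Without that replicate the difference at the start of Tnfsf14 was −0.18 (unadjusted p 0.134) and that upstream was −0.49 (unadjusted p 0.00606, limma adjusted p 0.966). The unadjusted count was then 2 member regions, against 4.21% of all, the second one being the start region of Tnfsf12 and Tnfsfm13 (0.68, SE 0.22, unadjusted p 0.00369). After IL-1β 2 member regions had an unadjusted p under 0.05, against 4.35% of all, one in Tnfrsf8 (0.49, SE 0.17) and one 5089 bp beyond Tnfsf9 (0.57, SE 0.23).

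**Figure D5:**
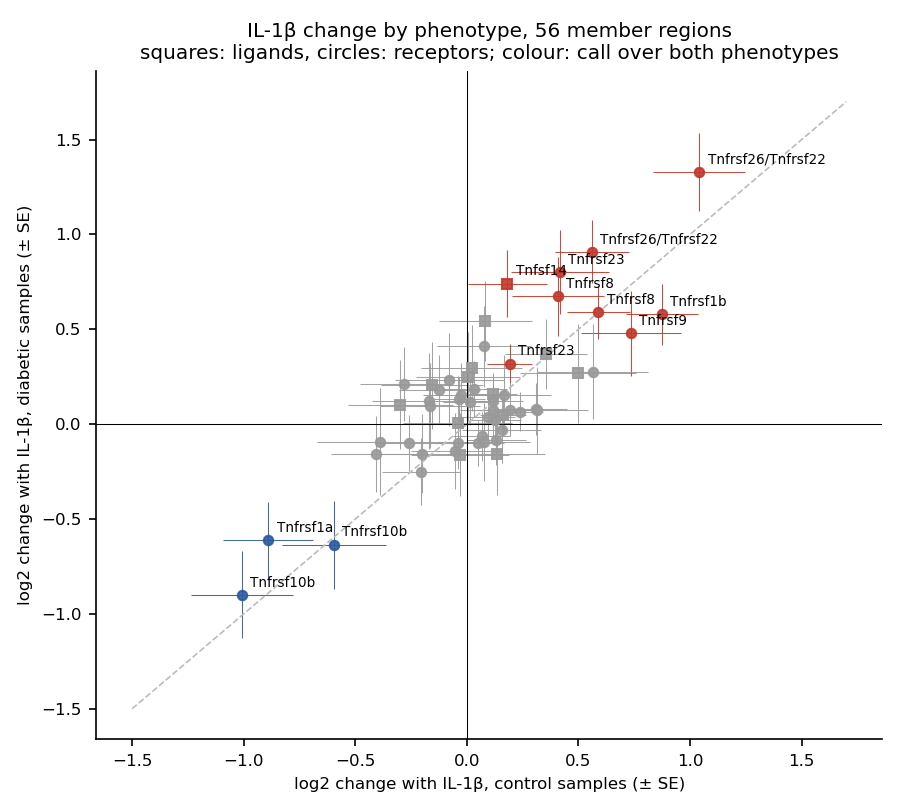
Log2 change with IL-1β in control samples (x axis) and in diabetic samples (y axis), each ± SE, for the 56 shared member regions; squares are ligands, circles receptors, and colour marks the 12 regions past the test over both phenotypes. Coloured points lie along the dashed line of equal change, and Tnfsf14 (0.18 against 0.74) stands furthest above it among them.

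Superfamily genes with other symbols (Tnf, Lta, Ltb, Fasl, Cd40lg, Cd70, Eda, Fas, Cd40, Cd27, Ltbr, Ngfr, Edar, Eda2r and Relt) had 54 consensus regions, 14 of them shared. Of these 14, 2 rose (against 6.42% of all regions) and 0 fell (against 3.40%), with a median log2 change of 0.13. One lies in Fas, the death receptor of Fas ligand, with 25.3 ± 2.71 scaled reads in baseline and 38.9 ± 5.75 in IL-1β libraries (SD, n = 8; log2 change 0.61, SE 0.12, limma adjusted p 0.00162). The other, in the window of Tnf and Lta, rose by 0.53 (SE 0.13, adjusted p 0.0105). Cd40lg and Cd70 had no consensus region.

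The proximal signalling list of 26 genes (TRAFs, RIPK1, caspase-8 and its inhibitor, IAPs, kinases and ubiquitin enzymes of the pathway) had 58 shared regions. Of these, 8 rose (against 6.42% of all shared regions) and 1 fell (against 3.40%), with a median of 0.06. The regions that rose most were near Cflar, the caspase-8 inhibitor c-FLIP (0.91, SE 0.17), in Traf1 (0.71, SE 0.16) and in Tnfaip3, the deubiquitinase A20 (0.53, SE 0.12), with limma adjusted p of 0.000915, 0.00539 and 0.00646. Regions of Traf3 went both ways.

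Markers of other cells were followed beside these changes. Of 16 shared regions at mature neutrophil markers 2 rose and 1 fell, of 11 at monocyte markers 2 rose, and of 6 at B cell markers 1 rose. Over all shared regions 6.42% rose and 3.40% fell. The median log2 change was 0.30 over monocyte, 0.09 over neutrophil, 0.02 over B cell and −0.07 over progenitor marker regions, beside 0.03 over all shared regions. None passed of 14 at progenitor, 4 at T cell, 1 at NK cell, 10 at erythroid, 4 at dendritic or 4 at stromal markers. The mean level over monocyte marker regions ranged from 22.6 to 34.04 scaled reads in baseline and from 29.8 to 37.5 in IL-1β libraries. Over neutrophil marker regions it ranged from 37.0 to 52.1 and from 42.4 to 54.4, and over B cell marker regions from 37.9 to 46.9 and from 44.2 to 55.9. Whether a shift in cell types had a part in the changes at TNF superfamily genes was not tested.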

How the data were processed

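Each deposited list holds the peaks of 1 library on build mm10, as the authors' peak caller wrote them: position, a score, the fold at the summit (a ratio over local background), −log10 p, −log10 q and the summit's place. The submitters' processing notes name MACS2 2.1.1, Bowtie2 2.2.6, Trim Galore 1.8, FastQC 0.11.3, edgeR and DiffBind 2.4.8, without their roles. Per the labels' protocols each library came from 50000 cells, with fragments above 1200 bp excluded and 50-bp single reads. Duplicate removal and Tn5 shifting are not given in the sources used here, and both could alter summit reads.

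Peaks that overlapped or touched were merged into 102496 regions, and 83972 in at least 2 libraries were kept. MACS2 writes the fold as (reads + 1) / (background + 1) and p from a Poisson distribution, so that summit reads follow from both (−log10 p met within 0.001). For the 24955 regions in all 16 libraries, log2 reads of the highest summit were given equal medians and modelled with limma 3.58.1, using 4 group means and a trended variance. The 6 contrasts were adjusted over all regions by Benjamini-Hochberg at 0.05. Calls were tested by two-sided Fisher's exact tests. The computations were tested on simulated data. Values per library are given for regions past limma's threshold, for the 2 highest regions of ligands and of receptors, and for the 6 with the largest difference in calls. Members and lists were chosen with earlier results of these data known.

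Replicate numbers pair a baseline with an IL-1β library within a phenotype, because per the series design both came from one split sample. Over shared regions, the paired libraries' deviations from group means had correlations of 0.42, 0.36, 0.01 and 0.07 in control and of 0.40, 0.19, −0.04 and 0.33 in diabetic samples 1 to 4. P-values rest on 4 samples per phenotype.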

Additional observations from a re-analysis of the deposited data

Results flagged for a closer look

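Among 64 groups of 4 libraries at the named regions, 4 had 1 library set apart from the other 3 by more than Dixon's 95% limit, about the 1 in 20 that chance gives. At the edge of Tnfrsf26 nearer Tnfrsf22, diabetic baseline replicate 1 gave 26.2 scaled reads while the others lay between 23.2 and 23.4. At the start of Tnfrsf23 the same library gave 78.5, and the next was 63.3. In the region within Cars, in the window of Tnfrsf26, diabetic baseline replicate 4 gave 135.2 beside 97.6 and less. In the region near Park7, in the window of Tnfrsf9, it gave 119.2 beside 94.6 and less.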

How the results depend on the processing

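Of 308 recomputed counts, 271 stayed within 1.5 times, and of 362 recomputed changes at named regions, 335 kept direction and side of the threshold, 24 lost the call, 1 gained it and 2 changed sign. The regions within Tnfrsf22 and the first of Tnfrsf10b kept theirs under all 22 alternatives that tested them. The other regions with limma values were tested under 22 or 23, and the 3 regions that fell under 22 each. Over both phenotypes, background scaling gave 1 higher and the deposited fold 1 higher and 1 lower. Keeping peaks whose −log10 q reached 5 left 37 regions, with 0 lower. In control samples the count higher was 0 with background scaling, 0 with the deposited fold, 1 in gene bodies alone and 5 with the replicate block, and the count lower was 0 with the deposited fold and 0 at the stricter q. In diabetic samples the count higher was 0 with background scaling, 0 with the deposited fold, 3 at the stricter q and 3 in gene bodies. The count lower was 0 with regions in at least 12 libraries, 0 with the deposited fold, 0 at the stricter q and 2 with the replicate block. The block, which pairs the portions of a sample, moved no other member count by over 1.5 times and no other call beyond those named. Over all regions it raised the higher and lower counts too, from 444 to 906 and from 242 to 476 in control samples, from 546 to 1038 and from 160 to 336 in diabetic samples, and from 848 to 1294 lower over both. The log2 change at the start of Tnfrsf23 was −0.015 with background scaling, and at the edge of Tnfrsf26 it was −0.0086 with the deposited fold. Leaving out each library in turn gave 7 to 12 higher and 3 to 4 lower over both phenotypes, 2 to 5 and 0 to 2 in control samples, and 2 to 6 and 0 to 2 in diabetic samples. In control samples 0 were lower without IL-1β replicate 1 or baseline replicates 2 or 3. In diabetic samples 0 were lower without IL-1β replicates 3 or 4 or baseline replicates 1, 2 or 3. Lost peaks numbered 0 with lists of equal length and 4 in gene bodies, where 2 regions gained them. Limma tested 36 member regions in gene bodies alone and 37 at the stricter q, against 56 in the main setting. The cause of the moved counts was not tested. The lists hold no reads outside peaks, so a region without a peak has no level.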
